A study of Mus musculus with 3 samples.

Results

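The B cells of the blood are described here as the cells that the authors' own clustering of the blood placed in cluster 4. There were 249 of them among 2924 blood cells (8.52%), and among 11510 cells in the 3 matrices of the series. They came from a CITE-seq experiment, which reads the messenger RNA of a cell and antibody tags bound to its surface from the same droplet. Membership was read from the deposited annotation, so the clustering had used the RNA of these very cells, and the contrast of the cluster with the other blood cells is given as a description only.

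B cells make antibodies. Each carries a B cell receptor, a membrane antibody held by the signalling pair Cd79a and Cd79b, and it takes up antigen through that receptor and shows it to T cells on MHC class II. The mature follicular B cells that recirculate through blood carry IgM together with IgD, the low-affinity IgE receptor CD23 and the homing receptor CXCR5. B1 and memory-type B cells carry little IgD, and B1 cells of the body cavities often bear the integrin CD11b. Plasma cells have largely replaced the surface receptor by secretion.

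The blood came from mice with brain metastases grown from E0771 breast cancer cells, an established mouse line given through the carotid artery, and was taken from the heart about 2 weeks later, after which red cells were lysed. The mice were female C57Bl/6 of 2 to 3 months. Depleted mice carried Cx3cr1CreERT and ROSA-iDTR, and control mice carried Cx3cr1CreERT alone. Both received tamoxifen, a break of 1 month and then diphtheria toxin. The recombinase in both arms is under the Cx3cr1 locus, which is active in microglia and in monocytes, and the toxin receptor of the depleted arm is switched on only in recombined cells and their offspring. The labels tie each arm of the blood to 1 hashed sample and do not say how many mice it held, so no test between arms was possible, and the intervals given cover counting error only. The arms are called labelled depleted and labelled control, after the hashtag of each cell.

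The antibody tags that sorted these cells are short DNA barcodes. Those behind the gates used here are shown because every surface call below rests on them; capitals mark the whole tag.
CD45R/B220: CCTACACCTCATAAT
CD117/c-kit: TGCATGTCATCGGTG
CD3: GTATGTCCGCTCGAT
NK1.1: GTAACATTACTCGTC
CD11b: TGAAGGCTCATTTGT
The arms of the blood were marked by 2 hashing antibodies.
M-HTO-8, labelled depleted: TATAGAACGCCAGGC
M-HTO-7, labelled control: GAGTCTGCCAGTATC

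Cells had a median of 4200 raw UMIs in the cluster (611 to 46889), against medians of 3016 to 160798 in the 7 other clusters. The barcodes of 31 of the 249 cells (12.4%) were also listed in a brain matrix, 28 in that of metastatic brain and 3 in that of naive brain. All 3 of the cells listed with the naive brain had the same raw UMI total and the same antibody total in both annotations. Among the other blood cells 802 of 2675 barcodes (30.0%) were shared in this way. The shared cells of the cluster were 11 of 101 with the depleted label and 20 of 148 with the control label. Results that turn on a few cells are therefore also given without the shared barcodes.

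The markers of B cells were found in most cells of the cluster and in a minority of the cells of every other cluster. Cd79a (chromosome 7, 24897497 to 24901858, build GRCm38) had a median of 17 corrected UMIs per cell, with a range of 0 to 35, and at least 1 in 243 of 249 cells. Cd79b (chromosome 11, 106311341 to 106314562) had a median of 10 and a range of 0 to 28, and Ms4a1, the gene of CD20 (chromosome 19, 11249679 to 11266149), a median of 4 and a range of 0 to 20. All 3 were detected together in 228 of the 249 cells (91.6%) and in 49 of the 2675 other blood cells, of which 40 lay in cluster 2. Of those 40 cells, 34 had barcodes shared with a brain matrix, as had 387 of all 468 cells of cluster 2. The 40 cells had a median of 25893 raw UMIs. A Cd79a UMI was found in 97.6% of the B cell cluster at a median of 4200 raw UMIs, against 0.725% of cluster 0, led by the neutrophil genes S100a9 and S100a8, at a median of 3016. The share with Cd79a was 12.2% in cluster 2, at a median of 21085.5 raw UMIs, and 15.8% of the 19 cells of cluster 7, and that with Cd79b was 98.4% in the B cell cluster, against 0.828% to 21.1% in the others. Other blood cells' markers were also present in the sums, at 20.2 CP10k for the 8 neutrophil markers (4 at 0.5 CP10k or more, Ly6g at 0) and 13.9 for the 8 classical monocyte markers (3 at 0.5 or more), against 64.1 for the 3 B cell markers, and S100a9 had UMIs in 57.0% of cells. CP10k, the scale of these levels, is the corrected UMIs of a gene per 10000 corrected UMIs of the summed cells.

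Levels in CP10k were compared as log2 ratios with 0.1 CP10k added to each side. A gene counts as measured when it reaches 0.5 CP10k on at least 1 side. Against the other blood cells 3534 genes were measured, of which 369 (10.4%) were past 2 fold higher and 806 (22.8%) past 2 fold lower in the B cell cluster. Over all of them 41.4% were above 0 and 58.6% below, and the median was -0.18.

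The B cell identity list had 22 members, all measured, and 19 were past 2 fold higher in the cluster, with a median log2 ratio of 4.08. Ly6d, a surface marker of the B lineage in mice, was at 23.8 CP10k in the cluster and 0.185 in the other blood cells. The transcription factors that set the lineage were at 11.9 and 0.189 CP10k for Ebf1 and at 2.87 and 0.0211 CP10k for Pax5. Fcmr, the receptor for the constant part of IgM, was at 6.27 CP10k against 0.0556 in the other blood cells. Bank1, a scaffold protein of the B cell receptor pathway, was at 5.52 CP10k against 0.0767. Of the identity list, 1 gene ran the other way. Ptprc, which encodes CD45, was at 6.45 CP10k in the B cell cluster and 13.2 in the other blood cells, with 23.2 in cluster 0. B220 is an isoform of CD45, and counts taken at the 3' end of transcripts do not separate it from the others.

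**Figure D1:**
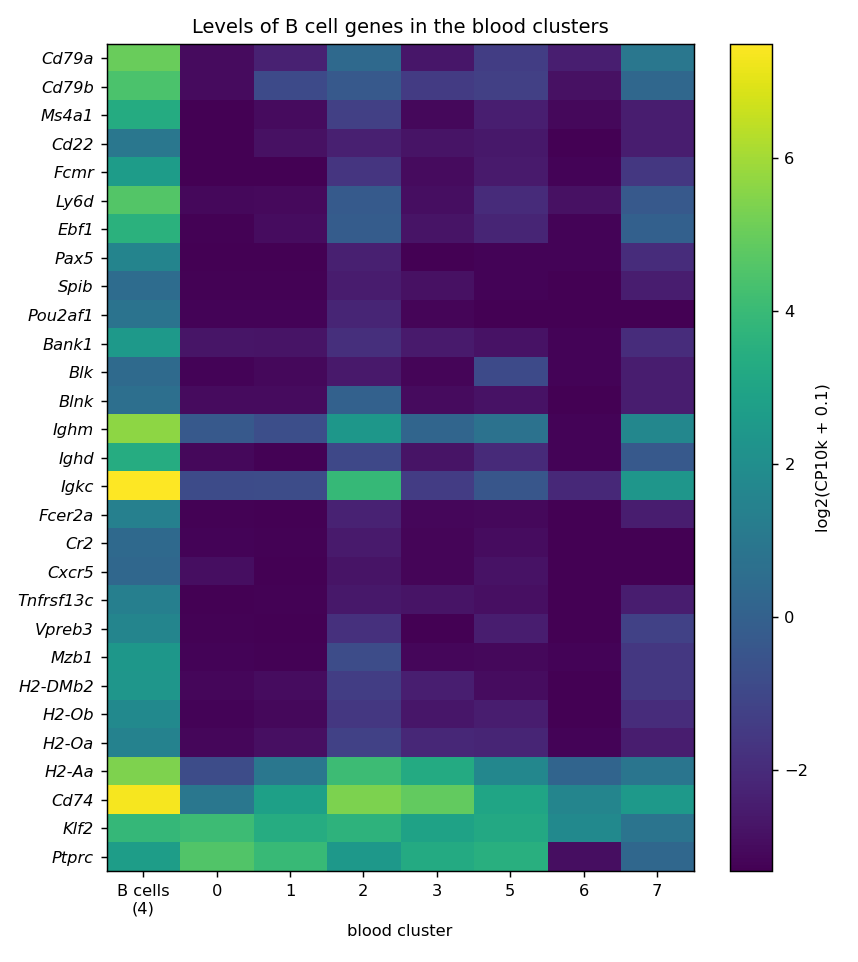
Heat map of log2(CP10k + 0.1) for genes of the B cell lists (rows) in the B cell cluster and the 7 other blood clusters (columns). Cd79a reaches 32.8 CP10k in the B cell cluster and at most 1.84 CP10k in another cluster, while Ptprc and Klf2 are as bright in other columns.

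Members of the B cell receptor pathway ranged from far above the other blood cells to somewhat below them. Of 24 members 23 were measured, 17 were higher in the cluster and 11 past 2 fold, with a median log2 ratio of 1.00. The inhibitory receptor Cd22 was at 1.85 CP10k in the B cell cluster and 0.0394 in the other blood cells. The adaptor Blnk was at 1.45 CP10k against 0.203, and the kinase Blk at 1.24 against 0.0556, with 0.438 in cluster 5. Syk, the kinase that reads the phosphorylated receptor, was at 3.31 CP10k against 1.78. Enzymes and brakes shared with myeloid cells lay near or below the other cells: Lyn had a log2 ratio of -0.46, the phosphatase Ptpn6 -0.49 and the inhibitory Fc receptor Fcgr2b -0.26.

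Transcripts of the antibody itself came next. Ighm, the constant region of IgM (chromosome 12, 113418826 to 113422730), was at 50.8 CP10k in the B cell cluster and 1.65 in the other blood cells, with a median of 12 corrected UMIs per cell, and the cluster was at 29.6 CP10k without 2 cells described below. Ighd, that of IgD (chromosome 12, 113407535 to 113416324), was at 10.4 CP10k against 0.113, and was found in 224 of 249 cells. Switched isotypes were rare: Ighg3 had UMIs in 3.21% of cells, Igha in 2.41% and Ighg2b in 1.61%. Ighg1, Ighg2c and Ighe were not among the 16619 genes of the blood matrix.

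Each B cell normally keeps 1 kind of light chain, kappa or lambda, and the cells were split by the kind with more UMIs. The medians of the groups differ in part because of this split. Some cells lay near equal counts, such as 40 kappa and 42 lambda UMIs. Of the 247 cells with any light chain UMI, 35 (14.2%, exact 95% interval 10.1 to 19.2) had more UMIs of Iglc1, Iglc2 and Iglc3 together than of Igkc. Those 35 cells had a median of 58 lambda UMIs (3 to 210) and 2 kappa UMIs, and 14 of them had no Igkc at all. The other 212 cells had a median of 50 kappa UMIs and 11 lambda UMIs (0 to 65). Lambda-dominant cells were 13 of 101 (12.9%) with the depleted label and 22 of 146 (15.1%) with the control label, and 30 of 203 (14.8%) of B220+ and 5 of 41 (12.2%) of B220- cells. The low lambda counts of kappa-dominant cells were not tested for their source.

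**Figure D2:**
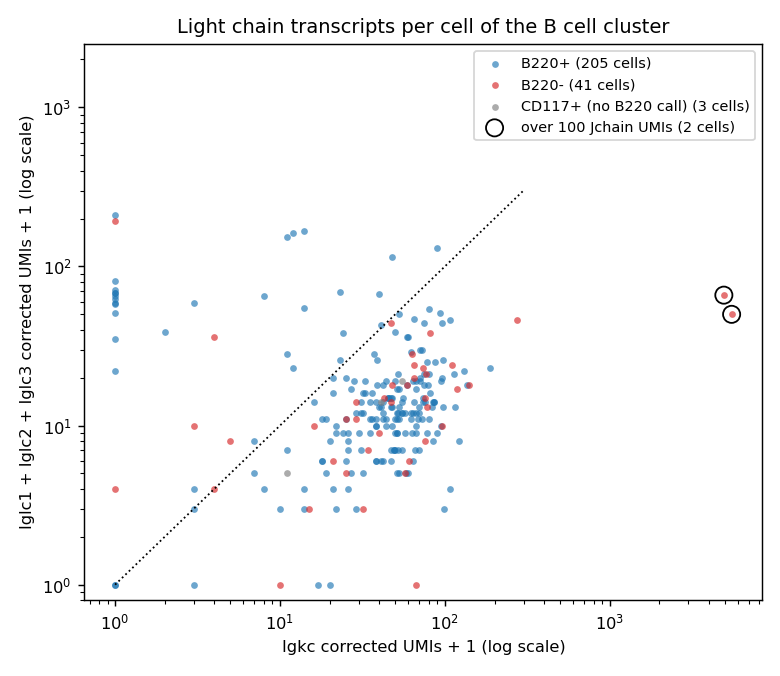
Corrected UMIs + 1 of Igkc (x axis) against those of Iglc1, Iglc2 and Iglc3 summed (y axis), both on log scales, 1 point per cell, coloured by B220 call; the dotted line marks equal counts. Most cells lie below the line, 35 lie above it, and 2 circled cells with over 100 Jchain UMIs stand apart at 5482 and 4918 Igkc UMIs.

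The Igkc, Ighm and Jchain sums of the cluster rest in large part on 2 cells. Jchain, the protein that joins secreted IgM and IgA (chromosome 5, 88519809 to 88527897), had 1352 UMIs in the cluster, of which these cells held 841 and 509. They had 1080 and 1559 UMIs of Ighm, 5482 and 4918 of Igkc, and none of Ighd or Ms4a1. Igkv12-46, a kappa variable gene, had 11 and 37 UMIs in them, which is 48 of the 56 in the whole cluster. Genes of the secretory pathway were present, among them Mzb1 with 6 and 39 UMIs and Derl3, which works in protein quality control of the endoplasmic reticulum, with 1 and 17. Both cells carried the control label, were called B220-, had barcodes shared with a brain matrix, and had 30456 and 46889 raw UMIs but hashtag totals of only 11 and 16, against a median of 748 in the cluster. The authors' gates placed 1 in NK1.1+ and the other in CD3+. Without them Igkc was at 96.2 CP10k in the cluster, against 179.9 with them, and Jchain at 0.0166 against 11.1.

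Homing genes of recirculating B cells were led by receptors that few other blood cells use. Of 13 measured members of 14, 9 were higher in the cluster, with a median of 0.34. Cxcr5, the receptor that takes B cells into follicles, was at 1.13 CP10k in the B cell cluster and 0.0246 in the other blood cells. Ccr7, which guides entry into lymph nodes, was at 1.38 CP10k against 0.21, and was highest of the other clusters in cluster 5 at 1.25. S1pr1, which lets lymphocytes leave lymphoid tissue, was at 1.55 CP10k against 0.207. Cd44, an adhesion receptor for hyaluronan, was lower at 0.761 CP10k against 4.08. Among survival receptors, Tnfrsf13c, the receptor for BAFF, was at 2.41 CP10k against 0.0246, and Cd40, which receives T cell help, at 0.622 against 0.217. Of the immature list, Vpreb3, a gene of B cell precursors and of some mature B cells, was at 2.92 CP10k against 0.0479, Vpreb1 was at 0, and Cd93, which marks transitional B cells, was at 0.0982 against 0.379.

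Antigen presentation genes were high in the cluster. Of 12 class II members, all measured, 10 were past 2 fold higher, with a median log2 ratio of 2.86. The class II chains H2-Aa and H2-Ab1 were at 42.7 and 30.9 CP10k in the B cell cluster, against 5.57 and 5.51 CP10k in the other blood cells. The invariant chain Cd74 was at 160.2 CP10k against 15.2, and the master regulator Ciita at 2.02 against 0.183. H2-Oa and H2-Ob, which restrain peptide loading in B cells, were at 2.69 and 3.41 CP10k against 0.106 and 0.069. The protease Ctss ran the other way, at 6.49 CP10k in the cluster and 14.8 in the other blood cells, with 45.7 in cluster 2. Class I members lay close to the other cells, with a median of 0.15 and none past 2 fold.

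Class II promoters share a short CCAAT box, and because these members were high together in the cluster their upstream sequence is shown for 2 of them, from RefSeq on GRCm38.p6, over the 150 bases before the start site. CCAAT was searched on both strands (its reverse is ATTGG) in windows of 300 bases. It was present in 8 of the 9 class II promoters listed, and in 37.4% of all 32851 promoters. Capitals mark the matches, which are at -48 in H2-Aa and at -59 and -35 in H2-Eb1, counted from the start site.
H2-Aa, chr17:34287824-34287973, minus strand: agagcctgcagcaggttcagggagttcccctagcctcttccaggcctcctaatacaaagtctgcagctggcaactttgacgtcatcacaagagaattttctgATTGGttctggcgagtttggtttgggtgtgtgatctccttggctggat
H2-Eb1, chr17:34305717-34305866, plus strand: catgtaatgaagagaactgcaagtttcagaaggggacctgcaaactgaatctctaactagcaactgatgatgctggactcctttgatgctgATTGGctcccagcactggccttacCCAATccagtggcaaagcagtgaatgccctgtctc
The octamer ATGCAAAT (reverse ATTTGCAT), the motif of POU factors and their B cell cofactor Pou2af1, was in 1.74% of all promoters, in 2 of the 18 listed for the receptor pathway (Blnk and Prkcb) and in none of the 16 of the identity list. Vpreb3, looked at after its level was known, carries it as well. Its match is at -45 and that of Blnk at -130, in capitals.
Vpreb3, chr10:75948150-75948299, plus strand: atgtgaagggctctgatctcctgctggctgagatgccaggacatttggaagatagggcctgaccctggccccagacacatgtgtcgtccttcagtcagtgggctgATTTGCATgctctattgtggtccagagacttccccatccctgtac
Blnk, chr19:40994222-40994371, minus strand: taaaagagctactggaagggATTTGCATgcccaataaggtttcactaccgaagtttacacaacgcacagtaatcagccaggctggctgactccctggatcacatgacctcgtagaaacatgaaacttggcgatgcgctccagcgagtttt
A match describes these letters only and shows no binding.

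Genes of recent activation and proliferation were low. All 17 measured immediate early and heat shock genes were lower in the cluster than in the other blood cells, with a median of -1.33; Fos was at 1.38 CP10k against 10.1 and Jun at 1.69 against 8.75, and both were highest in cluster 2, at 36.6 and 36.0 CP10k. Of the 7 measured cell cycle genes all were lower, with a median of -1.78. In the interferon response list 19 of 22 measured genes were below the other blood cells, at a median of -1.30, among them Ifitm3 at 2.70 CP10k against 18.2. Ly6e and Ly6a were among the 3 that were higher, at 22.8 and 5.43 CP10k in the B cell cluster, against 10.8 and 2.23 in the other blood cells. Cd69, which holds lymphocytes in tissue and follows activation, was the only member of its list of 11 measured to be higher, at 1.92 CP10k against 0.436, and was at 2.39 in cluster 5.

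The antibody panel was aimed at 34 genes, and few of their transcripts were abundant in these cells. In the B cell cluster 9 reached 0.5 CP10k. Of 19 measured against the other blood cells 2 were past 2 fold higher and 11 past 2 fold lower. Itgam, the gene of CD11b, was at 0.213 CP10k in the cluster and 2.79 in the other blood cells.

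By surface staining 205 of the 249 cells (82.3%) were B220+, 41 were B220- and 3 were CD117+, a gate set before B220. The B220+ gate held 366 blood cells in all, so 161 lay outside the cluster, 60 of them in cluster 2. Of those 161, 39 had UMIs of all 3 B cell markers. Of the 39, 32 lay in cluster 2, where 82.7% of all barcodes were shared with a brain matrix. Of the 41 B220- cells, 27 were negative for CD3, NK1.1 and CD11b as well, and 11 were CD11b+. B220+ cells had a median of 4129 raw UMIs and 788 hashtag counts, against 5109 and 427 in B220- cells. The 27 cells with no gate had medians of 2686 raw UMIs and 666 antibody counts, against 1478 antibody counts in B220+ cells. Whether some of the B220- calls follow from weak staining was not tested.

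B220+ and B220- cells of the cluster had core B cell genes at similar levels. Clustering on RNA had placed both in the cluster, so this likeness is a description and no test. Between B220+ and B220- cells 3006 genes were measured, 95 (3.16%) past 2 fold higher and 83 (2.76%) past 2 fold lower in B220+ cells, with a median of 0.08. Cd79a was at 34.3 CP10k in B220+ cells and 26.5 in B220- cells, and Ms4a1 at 9.91 and 10.1. Ptprc itself was at 6.54 CP10k in B220+ and 6.21 in B220- cells. The identity list had a median of 0.24 and the receptor pathway 0.08.

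Some single genes were higher in B220+ cells, while their lists lay closer together. Fcer2a, the gene of CD23, was at 2.86 CP10k in B220+ cells and 1.15 in B220- cells. Vpreb3 was at 3.34 and 1.15 CP10k, and Bach2, a repressor that holds back plasma cell fate, at 1.27 and 0.526. Ighd was at 11.3 CP10k in B220+ cells and 5.88 in B220- cells. Cxcr4, a receptor for the bone marrow chemokine CXCL12, was at 1.47 and 0.574, and 10 of 13 measured homing genes were higher, where 57.6% of all measured genes were. Il10ra, a chain of the interleukin 10 receptor, was at 0.852 CP10k in B220+ cells and 0.0956 in B220- cells and came second in rank. Il17a came first, but all 59 of its UMIs lay in 1 cell. Class II genes were higher in 11 of 12, with a median of 0.36.

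Genes of B1, marginal zone and atypical B cells were lower in B220+ cells. Of 9 measured members of 17, 7 were lower in B220+ cells, where 42.4% of all measured genes were, and their median was -0.83. RNA of other cell types differed too: the 12 microglia markers summed to 4.87 CP10k in B220+ cells and 10.8 in B220- cells, and all 6 measured were lower in B220+ cells, with a median of -1.22. The 8 neutrophil markers summed to 21.3 CP10k in B220+ cells and 11.4 in B220- cells, while S100a9 had a median of 1 UMI per cell in both. The part of such RNA in the contrast was not tested. Bhlhe41, a transcription factor that B1 cells need, was at 0.0802 CP10k in B220+ cells and 0.765 in B220- cells, Plac8 at 4.96 and 8.99, and Cd9 at 1.00 and 1.86. Bhlhe41 thus counted as measured through the B220- cells alone. The immunoglobulin list had a median of -1.27, and -0.04 once the 2 cells with high Jchain were left out; Igkc was at 94.2 CP10k in B220+ cells and 596.5 in B220- cells with them and 108.5 without them. Without these cells the B1 list had a median of -0.96, Creld2 and Herpud1, both of the endoplasmic reticulum stress response, had log2 ratios of -0.78 and -0.49 in place of -2.15 and -1.72, and over all 3155 measured genes 70 (2.22%) were past 2 fold higher and 116 (3.68%) past 2 fold lower.

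The 11 CD11b+ B220- cells were set apart from the rest of the cluster. The authors' gates had called them Ly6CLow, a myeloid gate. Cd79a was found in 11 of 11 (5 to 31 UMIs, median 18) and Ms4a1 in 11 of 11 (2 to 16, median 6). Membership of the cluster was set by RNA, so finding these markers is no test of what the 11 cells are. Cd79a was at 33.3 CP10k in these cells, 25.9 in CD11b- B220- cells and 34.3 in B220+ cells. They had a median of 8184 raw UMIs (5443 to 12701), above the 4129 of B220+ cells. Of the 8 neutrophil markers 5 were at 0 in them, Ly6g, Cxcr2 and Retnlg included, as were the monocyte markers Vcan, F13a1 and Fn1. Ly6g was at 0 in the whole cluster, and Vcan, F13a1 and Fn1 in the CD11b- B220- cells too. The 8 neutrophil markers summed to 1.87 CP10k, against 21.3 in B220+ cells. S100a9 among them had a median of 0 UMIs per cell here and 1 in B220+ cells. The 2 highest B220+ cells held 245 and 195 of the 1057 S100a9 UMIs there. The 8 classical monocyte markers summed to 13.2 CP10k, against 12.6 in B220+ cells, with 3 at 0.5 CP10k or more. Ccr2, a monocyte chemokine receptor, was at 0.622 against 0.211, both low levels. Of these cells 1 had its barcode shared with a brain matrix.

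Ighd was low in the CD11b+ B220- cells and Ighm was high. Ighd had 0 to 2 UMIs per cell, with a median of 1, against 0 to 19 and a median of 5 in B220+ cells. Summed, Ighd was at 1.40 CP10k in CD11b+ B220- cells, 9.25 in CD11b- B220- cells and 11.3 in B220+ cells. Ighm was at 51.2, 29.2 and 28.4 CP10k in the same order, with a median of 35 UMIs per CD11b+ B220- cell and 12 per B220+ cell. Most cells of the cluster with Ighg2b, a switched IgG constant region, were here too: 3 of 4, with 35 of 39 UMIs, and 24 of them in 1 cell.

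Against B220+ cells, 3524 genes were measured, of which 511 (14.5%) were past 2 fold higher and 231 (6.56%) past 2 fold lower in the CD11b+ B220- cells, with a median of 0.18. Of 17 members of the B1, marginal zone and atypical list 12 were measured and 8 were past 2 fold higher, with a median of 1.11. Bhlhe41 was at 1.40 CP10k in CD11b+ B220- cells and 0.0802 in B220+ cells. Zbtb32, a transcription factor tied to memory B cells, was at 0.933 and 0.0501, and Plac8 at 17.6 and 4.96. Members such as Bhlhe41 and Zbtb32 counted as measured only through their level in the CD11b+ B220- cells. The count past 2 fold and the median of the list are therefore a description and no test. The costimulatory ligands Cd80 and Cd86 were at 0.622 and 2.02 CP10k in CD11b+ B220- cells, and at 0.0401 and 0.351 in B220+ cells. The 11 CD11b+ B220- cells held 64326 corrected UMIs in all, so their low levels rest on few UMIs. Bhlhe41 had 9 UMIs in 5 of them, and Fcer2a, given next, 3 UMIs in 2 of them. Other single genes were lower: Fcer2a was at 0.466 CP10k and 2.86, Tnfrsf13c at 0.777 and 2.37, and Cxcr4 at 0.311 and 1.47. Their lists were not lower as a whole, since 6 of 13 measured homing genes were higher, with a median of -0.12, and the identity list had a median of -0.08. Cxcr5 was at 1.24 CP10k in CD11b+ B220- cells and 1.18 in B220+ cells. Cd5, which marks B1a cells, was at 0 in CD11b+ B220- cells and 0.0401 in B220+ cells. At so low a level the 11 cells could not show a difference, so this 0 tells nothing about their type. Tbx21, a factor of atypical memory B cells, was at 0 in the whole cluster.

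**Figure D3:**
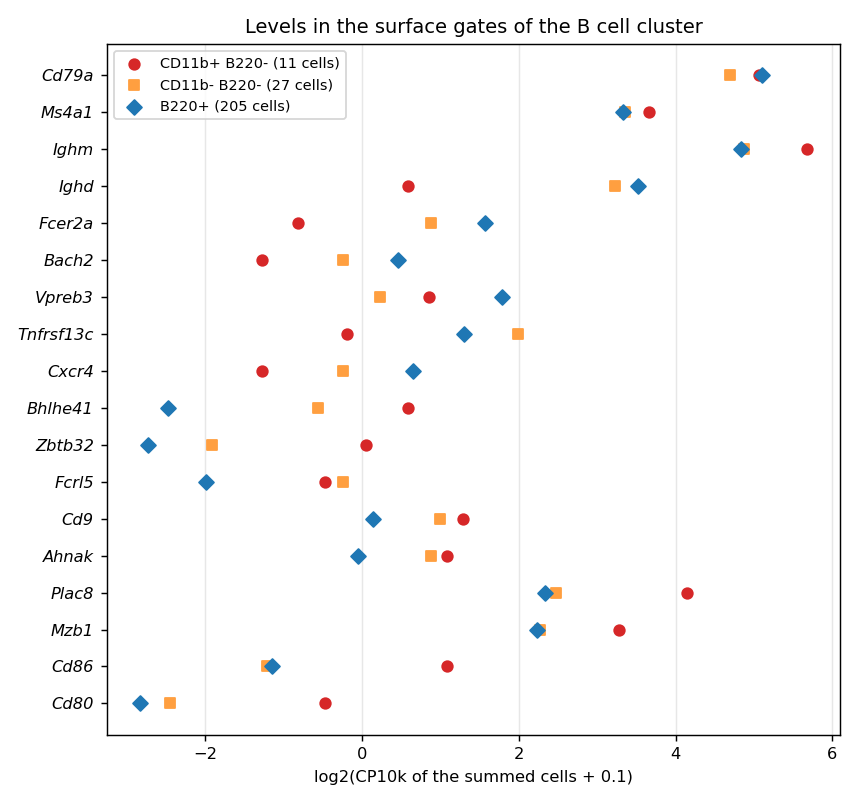
log2(CP10k + 0.1) of 18 genes (rows) in the summed CD11b+ B220- (11 cells), CD11b- B220- (27 cells) and B220+ (205 cells) cells of the cluster. The 3 groups lie together for Cd79a and Ms4a1, while CD11b+ B220- cells are lowest for Ighd, Fcer2a and Bach2 and highest for Bhlhe41, Zbtb32 and Plac8.

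Without the shared cell Ighd and the B1 list stayed close, while Fcer2a was lower still. Over the 10 CD11b+ B220- cells with unshared barcodes, Ighd was at 1.37 CP10k, against 11.8 in unshared B220+ cells, and Fcer2a at 0.172 against 3.04. The B1 list had a median of 1.13 with 8 of 12 past 2 fold, beside 18.6% of all 4094 genes measured. Here too a member could count as measured through the CD11b+ B220- cells alone. Over the 9 such cells with the depleted label alone, its median was 0.96, against 0.27 over all 3927 measured genes. Fewer of its members were then past 2 fold. Markers of microglia summed to 21.1 CP10k in the 11 cells and 4.87 in B220+ cells; with the depleted label alone they summed to 5.36, and the 2 control cells to 89.1, of which the shared one is 1. Its 24 UMIs of C1qa were the most of any cell in the cluster.

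The cluster made up a smaller share of the labelled depleted blood. It held 101 of 1553 cells (6.50%, exact 95% interval 5.33 to 7.85) with the depleted label and 148 of 1371 (10.8%, 9.20 to 12.6) with the control label, a ratio of 0.603 (0.463 to 0.781). The B220+ gate, over all clusters, gave 163 of 1553 (10.5%) and 203 of 1371 (14.8%), a ratio of 0.709 (0.573 to 0.875). Both intervals cover the counting of cells and not the spread between mice, and a share also depends on the number of other cells. Inside the cluster B220+ cells were 79 of 101 (78.2%) with the depleted label and 126 of 148 (85.1%) with the control label, a ratio of 0.919 with an interval that holds 1 (0.685 to 1.23).

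CD11b+ B220- cells were 9 of 101 (8.91%, 4.16 to 16.2) with the depleted label and 2 of 148 (1.35%, 0.164 to 4.80) with the control label. The intervals, which cover counting error only, overlap between 4.16 and 4.80. Such an overlap is no test of a difference, and these shares were not compared further. CD11b- B220- cells were 9 of 101 (8.91%) and 18 of 148 (12.2%). All 3 CD117+ cells of the cluster had the depleted label. Cells with the depleted label had a median of 4884 raw UMIs and those with the control label 3917.5.

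**Figure D4:**
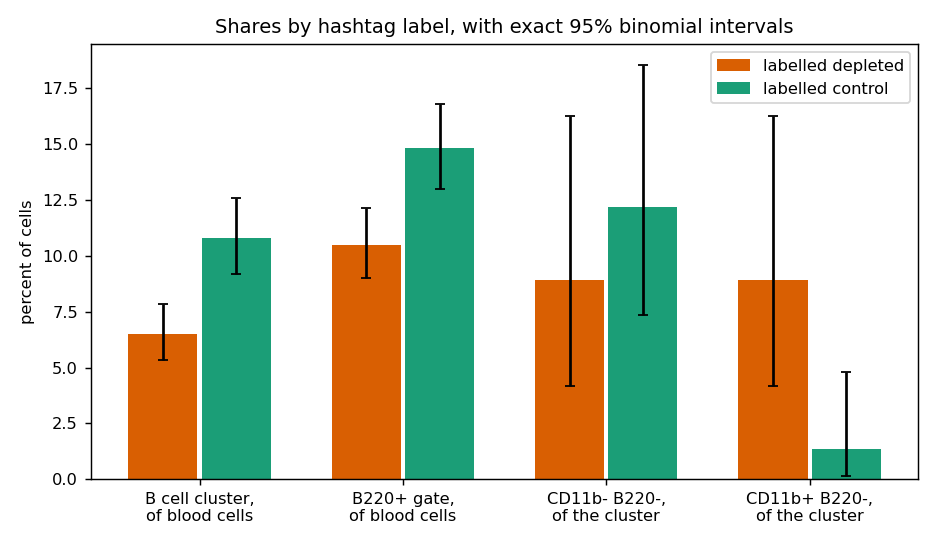
Percent of cells (y axis) with exact 95% binomial intervals, labelled depleted beside labelled control, for the B cell cluster and the B220+ gate among blood cells and for both kinds of B220- cell within the cluster. The cluster is 6.50% of cells with the depleted label and 10.8% with the control label, and CD11b+ B220- cells run the other way.

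Few genes stood far apart between the arms. Of 2955 measured, 22 (0.745%) were past 2 fold higher and 16 (0.541%) past 2 fold lower in labelled depleted cells, with a median of 0.04. Cx3cr1, which drives the recombinase, had 9 UMIs in the 101 labelled depleted cells and 9 in the 148 labelled control cells. The markers held level: Cd79a was at 33.3 CP10k with the depleted label and 32.4 with the control label, and Ms4a1 at 10.5 and 9.36.

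Interferon response genes were lower with the depleted label. All 12 measured members of 30 were below 0, where 44.7% of all measured genes were, with a median of -0.51, and 2 were past 2 fold. Ifi27l2a had a median of 1 UMI per cell (0 to 17) with the depleted label and 1.5 (0 to 22) with the control label, and was at 3.70 CP10k and 7.46. Isg15, a ubiquitin-like protein induced by interferon, was at 0.156 CP10k and 0.650, but 19 of its 54 UMIs came from 1 cell. Irf7, which amplifies the response, was at 0.234 CP10k and 0.664, with 21 of 59 UMIs in 1 cell. Without shared barcodes 9 members were measured, all 9 were below 0, beside 48.2% of all genes, and the median was -0.24, with Isg15 at a log2 ratio of -0.61, Irf7 at -0.07 and Ifi27l2a at -0.95. In B220+ cells inside the cluster 11 of 12 measured members were lower, with a median of -0.61, where 52.0% of all measured genes were above 0. Over the B220+ gate in any cluster, where 161 of 366 cells lie outside the B cell cluster, the median turned to 0.39.

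Presentation and early response genes were also somewhat lower. In class II 10 of 12 were lower with the depleted label, where 44.7% of all measured genes were, with a median of -0.21. Ciita was at 1.48 CP10k with the depleted label and 2.42 with the control label. In class I 9 of 11 were lower, with a median of -0.24, among them H2-T23 at 3.39 CP10k and 4.83. Without shared barcodes both of these counts were again 10 of 12 and 9 of 11, beside 48.2% of all genes. In B220+ cells inside the cluster 10 of 11 class I members were lower, with a median of -0.26. Over the B220+ gate in any cluster, which takes in cells outside the B cell cluster, the class I median turned to 0.09. Of 15 measured immediate early and heat shock genes 12 were lower, with a median of -0.19, and Fos was at 0.778 CP10k with the depleted label and 1.82 with the control label. Jun was at 1.01 and 2.17 CP10k, and its log2 ratio of -1.03 was -0.20 without shared barcodes. The early response count was then 9 of 14, beside the same 48.2%, with a median of -0.14 and none past 2 fold, against 3 before. Activation genes had 6 of 7 lower, with a median of -0.43, and 4 of 5, with a median of -0.21, without shared barcodes.

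B1, marginal zone and atypical genes were higher with the depleted label in 7 of 8 measured, where 55.3% of all genes were, with a median of 0.39; in B220+ cells alone the count was 6 of 8, beside 52.0% of all genes, and the median 0.28. Mzb1, a chaperone of IgM assembly, was at 6.46 CP10k with the depleted label and 4.29 with the control label. Dtx1, a Notch target of marginal zone B cells, was at 0.506 and 0.212. Ighd and Fcer2a were lower, at 8.33 and 1.81 CP10k with the depleted label and 11.8 and 3.05 with the control label. In B220+ cells alone Ighd had a log2 ratio of -0.41 and Fcer2a one of -0.49. Ighm had a log2 ratio of -0.85, and of 0.42 without the 2 cells with high Jchain; the immunoglobulin list had a median of -0.13, and of 0.33 without them. In the receptor pathway 15 of 22 were higher, with a median of 0.13, and none past 2 fold.

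**Figure D5:**
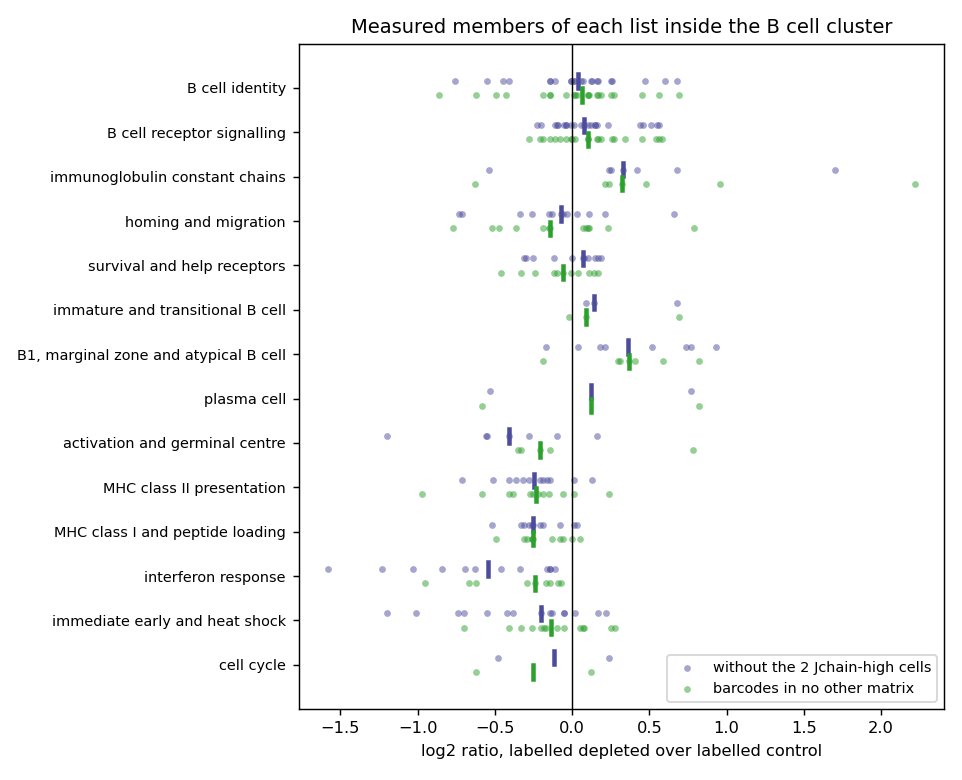
log2 ratio of labelled depleted over labelled control (x axis) for each measured member of the 14 lists (rows), without the 2 cells with high Jchain (violet) and without shared barcodes (green); ticks are list medians. All interferon points lie left of 0 in both, beside 48.6% and 48.2% of all genes, with medians of -0.54 and -0.24, and the B1 list has medians of 0.37 in both.

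RNA of other blood cells differed between the arms in the cluster. The 8 neutrophil markers summed to 29.0 CP10k with the depleted label and 13.8 with the control label, 4 at 0.5 CP10k or more in each, and Ly6g at 0 in both. Of the S100a8 and S100a9 UMIs with the depleted label, 79.5% lay in 4 cells of 50 or more, and with the control label 34.8% lay in 1. Among the genes furthest above 0 in labelled depleted cells were Chil3, Retnlg, Stfa2l1 and Ccr2, all genes of myeloid cells; 61 of the 69 Chil3 UMIs and 132 of the 276 Retnlg UMIs lay in 1 cell each. Kcnn4, a potassium channel of activated lymphocytes, was also among them, at 0.642 CP10k and 0.184 with the control label over 34 cells. Markers of microglia summed to 4.34 CP10k with the depleted label and 7.01 with the control label, and to 4.46 and 4.58 without shared barcodes, and those of T cells to 1.28 and 2.13. The part of such RNA in the list medians was not tested.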

How the data were processed

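RNA, antibody tags and hashtags were read from 1 droplet pool. Per the submitters' processing notes, reads were handled with Cell Ranger 3.1 on mm10 and Seurat 3.1.1. The deposited blood values are natural log transforms, ln(1 + x), where x is a depth-corrected UMI number made by the authors (SCT, per the file headers); x was whole within 1e-06 and its sums equalled the deposited corrected totals in 100% of 2924 cells. Clusters, gates, hashtag labels and raw totals were taken from the cell annotation the authors deposited; 62 of its columns were left unused. All cells were kept, and no doublet caller was run.

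Corrected UMIs were summed per group of cells and scaled to 10000 (python 3.11.15, numpy 2.4.6, pandas 2.3.3). Shares carry exact Clopper-Pearson 95% intervals (scipy 1.17.1). With 1 hashed sample per arm no p-value was computed. The plan had assumed raw counts; corrected UMIs took their place. In a simulation of the arms over 2673 genes, 100% of changed genes and 0.44% of unchanged genes passed 2 fold. It drew Poisson counts from the same mean profile for all cells, with changes larger than 2 fold in genes above the measured minimum. It held no single cells with outlying counts, so these shares are not error rates of the contrasts above. Named genes were members of 14 fixed lists, the 15 highest against the other blood cells, the 12 highest and lowest in each contrast inside the cluster with at least 20 UMIs, and genes of the antibody panel. Mitochondrial, ribosomal protein, predicted, haemoglobin, variable region and sex-linked genes were passed over by size; Igkv12-46 and the cells it lies in were singled out after their values were seen. The cells and lists were chosen with earlier results of these data known. Promoters are from RefSeq.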

Additional observations from a re-analysis of the deposited data

Results flagged for a closer look

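Of the gene and marker lists with at least 3 measured members in both arms, 4 had medians of opposite sign in the arms for B220+ over B220- cells. The B cell receptor signalling list had a median log2 ratio of -0.03 in labelled depleted cells and 0.14 in labelled control cells. The immature and transitional list, with 3 measured members (Cd24a, Vpreb3 and Cd38), had -0.24 in labelled depleted cells and 0.56 in labelled control cells. Vpreb3 was higher in B220+ cells in both arms. The neutrophil markers had a median of 1.47 in labelled depleted cells and -0.16 in labelled control cells. The classical monocyte markers had -0.16 in labelled depleted cells and 0.53 in labelled control cells. The difference between arms was not tested, and the B220- cells number 19 with the depleted label and 22 with the control label.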

How the results depend on the processing

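No paired analysis was possible because each arm holds 1 hashed sample. The shares of the cluster and of B220+ cells kept their direction without shared barcodes, and the earlier annotation table gave equal shares. Of the list medians, counts and shares, 220 values stayed close, 44 moved and 5 turned sign; of single genes, 592 stayed close, 394 moved and 31 turned. The cause was not tested, beyond fewer cells or genes entering. For the B cell cluster against the other blood cells, the count past 2 fold was 209 higher and 496 lower with a pseudocount of 0.5, 1250 lower with a minimum of 0.2 CP10k, 1411 lower with none, and 315 lower against the median over the other clusters, where Ccl3 turned to 0.12, Ctss to 0.88, Il7r to 0.19 and Plac8 to 0.46. Jchain turned to -0.1 without cells above the 95th percentile of raw UMIs and to -0.11 without the 2 cells of high Jchain, an alternative chosen after seeing the data. For B220+ against B220- cells without shared barcodes, 151 genes were lower, the immunoglobulin median was 0.01, the activation median -0.2, Derl3 0.16, Jchain 0.3 and Nr4a1 -0.23. A pseudocount of 0.5 gave 6 higher, 19 lower and a plasma cell median of -1.25. Means of single cells gave medians of -0.9 (immunoglobulin), -1.31 (plasma cell) and -0.12 (interferon). Without the deepest cells these were -0.04 for immunoglobulin and -0.16 for interferon, with Derl3 at 0.14 and Jchain at 0.27. A minimum of 0.2 gave 306 higher, 236 lower and -0.94 for plasma cell genes; none gave 522, 343, -1.07, -0.41 for the B1 list and -0.04 for activation. Without the 2 cells of high Jchain the immunoglobulin median was -0.04, Derl3 0.14 and Jchain 0.26. For labelled depleted against labelled control without shared barcodes, immunoglobulin was 0.32, interferon -0.24, Chil3 -0.6, Igkc 0.21 and Jchain 0.06. A pseudocount of 0.5 gave 3 higher, 4 lower and -0.51 for plasma cell genes. Without the deepest cells immunoglobulin was 0.37, Chil3 -0.31, Igkc 0.22 and Jchain 0.07. A minimum of 0.2 gave 104 higher, 54 lower and -0.19 for plasma cell genes; none gave 133, 99, -0.21, -0.1 for immature and -0.13 for activation genes. Without weakly hashed cells (the lowest 10 percent of each arm) immunoglobulin was 0.42, Igkc 0.27 and Jchain 0.07. Over the B220+ gate in any cluster 26 genes were lower, with medians of 0.23 (immunoglobulin), -0.09 (immature), 0.21 (plasma cell), 0.09 (class I) and 0.39 (interferon), and Igkc at 0.2, Irf7 at 0.72, Isg15 at 0.94 and Jchain at 1.61. In B220+ cells of the cluster 33 were lower, with immunoglobulin at 0.28, Chil3 at -0.42, Ighg2b at -0.74, Igkc at 0.22 and Jchain at 0.1. Without the 2 cells of high Jchain immunoglobulin was 0.33, Igkc 0.24 and Jchain 0.06.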
